A study of Homo sapiens with 24 samples.

Results

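Serine and selenocysteine tRNAs of the nuclear genome were followed in HEK293T cells, a human embryonic kidney line, after knockout of a dihydrouridine synthase gene. The members were every nuclear entry that the authors' deposited tables name for serine or selenocysteine, with the mitochondrial entries left out. They made up 5 of the 74 anticodon families, of which 49 were nuclear. At the finer level they made up 20 of the 286 isodecoder entries, of which 261 were nuclear. Isodecoders are tRNAs that share an anticodon and differ elsewhere in their sequence. SeC-TCA held 2 isodecoders, Ser-AGA 4, Ser-CGA 4, Ser-GCT 6 and Ser-TGA 4.

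The 24 libraries fell into 8 groups of 3. The knockout groups were 2 clones without DUS1L (labelled 1-9 and 2-4), 2 without DUS2L (1-8 and 2-1) and 2 without DUS3L (1-5 and 2-8). The wild-type groups were 2 sets of HEK293T cells, labelled WT and WT 2. Cells of every group were grown without drug treatment, and their tRNA was cut from a gel before library preparation. Each knockout group is a single clone, so that a clone's own traits and the loss of the enzyme cannot be told apart within it. The tables call the clones #1 and #2 without saying which labelled clone each is. Whether the 3 libraries of a group are separate cultures is not given in the labels, and the p-values then reflect only the scatter of these libraries, part of which may be technical.

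Each family has its place in decoding. Ser-GCT reads the AGU and AGC codons of serine, and Ser-AGA, Ser-CGA and Ser-TGA share the UCN codons. Of these, Ser-AGA reads those other than UCG through an inosine at the wobble base. Ser-CGA reads UCG and Ser-TGA reads mainly UCA. SeC-TCA is charged with serine by the same synthetase as the serine tRNAs, the serine is then turned into selenocysteine on the tRNA, and the product is inserted at UGA codons of selenoprotein messages. Serine, selenocysteine and leucine tRNAs are the nuclear tRNAs with a long variable arm, which seryl-tRNA synthetase recognises in place of the anticodon. Dihydrouridine synthases turn uridines of tRNA into dihydrouridine, with DUS3L acting in the variable region and the other enzymes in the D loop.

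All 20 isodecoder names matched a tRNA gene of RefSeq on GRCh38. Of these genes, 13 lie on chromosome 6, between positions 26305490 and 28597421, in the region that holds many human tRNA genes. In the GENCODE annotation 13 overlap no other gene, 6 lie in an intron of another gene and 1 overlaps an exon. The serine genes are 82 to 84 bases long, and tRNA-SeC-TCA-1-1 is 87 bases long (chromosome 19, 45478601 to 45478687, in an intron of ERCC1). Dividing by gene length would move the log2 level of a member against another by at most 0.09, so levels are given as counts. The name tRNA-Ser-AGA-2-5 stands for 6 genes and tRNA-Ser-GCT-4-1 for 3, and their values cannot be split by gene. The minor selenocysteine isodecoder is shown because its anticodon, in capitals, is the one by which both selenocysteine entries are named (GRCh38 chr22:44150657-44150740, plus strand, in an exon of AL031595.3 and an intron of PARVB, from the GENCODE transcript):
tRNA-SeC-TCA-2-1: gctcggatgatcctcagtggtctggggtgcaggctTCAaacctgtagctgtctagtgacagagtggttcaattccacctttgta

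The authors' deposited tables gave a mean of normalised counts, a log2 fold change and a p-value per tRNA and clone. Values per library were not analysed here. A level is therefore the normalised count of a group recovered from the authors' mean and both fold changes, and the error of a fold change is the standard error (SE) recovered from its p-value. A tRNA passed at a p-value under 0.05 after Benjamini-Hochberg adjustment over all rows of its table. Depth is known only as the authors' means, whose sums were 2649830 normalised counts for the DUS2L families, 1278870 for DUS1L and 817514 for DUS3L. Clones #1 and #2 of a knockout share their wild-type libraries. The DUS1L and DUS2L tables share them too, since the recovered wild-type levels of 47 families stood in a ratio that varied by an SD of only 0.0115 on the log2 scale, against an SD of 1.30 over 45 families between the DUS3L and DUS1L tables. Tests are therefore kept within a table, and values of several tables are set side by side only as description. The tables hold tRNA alone, so neither the knocked-out messenger RNAs nor markers of the cell line could be checked.

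In the DUS2L knockouts the AGY-reading serine family and the selenocysteine family fell in both clones, and Ser-TGA rose in both. Clone #1 had 1 member family higher, where 8.45% of the 71 families tested were higher, and 2 lower, where 26.8% were lower. Clone #2 had 1 higher (16.9% of all families) and 3 lower (25.4%). In both clones together 1 was higher (8.45%) and 2 were lower (18.3%).

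Ser-GCT had a level of 953 normalised counts in DUS2L KO #1 and 820 in DUS2L KO #2, against 6935 in wild type. The authors' deposited table gave it a log2 fold change of -2.86 ± 0.72 (adjusted p = 0.000956) in KO #1 and -3.08 ± 0.72 (adjusted p = 0.000206) in KO #2. In pooled RNA of a culture, fewer cells with a tRNA and less of it per cell cannot be told apart. SeC-TCA had 786 normalised counts in KO #1 and 583 in KO #2, against 3475 in wild type, with changes of -2.14 ± 0.49 (adjusted p = 0.000211) and -2.58 ± 0.49 (adjusted p = 4.94e-06) in the authors' deposited table. Both knockout levels of these families lay far below that of wild type. Ser-TGA went the other way, with 1548 normalised counts in KO #1 and 2232 in KO #2, against 647 in wild type. Its change in the authors' deposited table was 1.26 ± 0.49 (adjusted p = 0.0339) in KO #1 and 1.79 ± 0.49 (adjusted p = 0.0015) in KO #2. Relative to the median nuclear family, both knockout levels of Ser-TGA were nevertheless below that of the wild-type set of the DUS3L table, as described with the levels across tables.

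The remaining UCN families had levels below wild type, and 1 of them passed in a single clone. Ser-AGA had 290 normalised counts in KO #1 and 182 in KO #2, against 620 in wild type, and passed in KO #2 alone (-1.77 ± 0.49, adjusted p = 0.00158, against -1.10 ± 0.49, adjusted p = 0.061, in KO #1 of the authors' deposited table). Ser-CGA had 470 and 565 normalised counts in KO #1 and KO #2, against 1180 in wild type. Its changes of -1.33 ± 0.65 and -1.06 ± 0.65 in the authors' deposited table passed in neither clone (adjusted p = 0.0854 and 0.178). The median nuclear family of this table itself stood at -1.10 in KO #1 and -0.45 in KO #2. Set against that median, Ser-GCT still passed at -1.77 and -2.63, in KO #1 only just (adjusted p = 0.0469, against 0.00158 in KO #2). Ser-TGA passed at 2.36 and 2.24 (adjusted p = 1.7e-05 and 6.7e-05). SeC-TCA stood at -1.05 in KO #1, where its call was lost (adjusted p = 0.0981), and at -2.13 in KO #2. Its major isodecoder, tRNA-SeC-TCA-1-1, nevertheless kept its call in KO #1 when set against the median nuclear isodecoder.

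**Figure D1:**
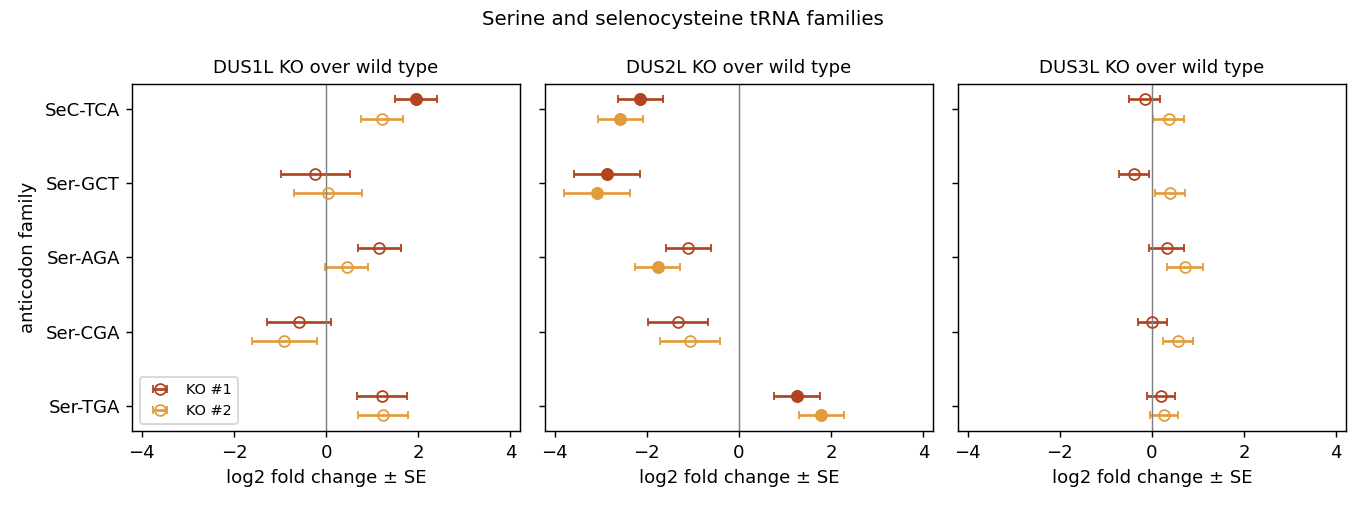
Log2 fold change over wild type (x axis, log2 scale) of the 5 serine and selenocysteine anticodon families (y axis) in clones #1 and #2 of the DUS1L, DUS2L and DUS3L knockouts. Points are the authors' values, bars are the recovered SE, and filled points passed at an adjusted p under 0.05. In the DUS2L panel Ser-GCT and SeC-TCA lie left of 0 and Ser-TGA right of it in both clones, and no point of the DUS3L panel is filled.

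With Ser-GCT lower and Ser-TGA higher, the serine pool had another make-up. Ser-GCT held 29.2% of the recovered serine level in DUS2L KO #1 and 21.6% in DUS2L KO #2, against 73.9% in wild type. It held 49.1% in the other wild-type set, that of the DUS3L table. Of the wild-type Ser-GCT level in the DUS2L table, 44.3% was that of tRNA-Ser-GCT-2-1, which had no p-value there. The 3 UCN families together had 2307 normalised counts in KO #1 and 2979 in KO #2, against 2446 in wild type. The summed UCN level of the knockouts thus lay on both sides of that of wild type, and the AGY-reading level did not. These sums were not set against the median nuclear family, which stood at -1.10 in KO #1 and -0.45 in KO #2.

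Among the isodecoders the DUS2L comparison called 1 member higher and 7 lower in KO #1, where 16.7% of the 276 entries tested were higher and 37.3% lower, and 2 higher and 11 lower in KO #2, where 21.4% were higher and 30.8% lower. In both clones 1 was higher (16.7% of all entries) and 7 were lower (26.8%). Of the 20 members 19 carried a p-value, and 17 had an authors' mean of at least 10. Members of all families but Ser-TGA were among the 7, and they differed in how far they fell.

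Within Ser-GCT every isodecoder whose mean reached 10 had a lower level in both clones than in wild type. tRNA-Ser-GCT-2-1 (chromosome 6, 27297996 to 27298077, in an intron of POM121L2) had the highest wild-type level of the family. It had 154 normalised counts in KO #1 and 110 in KO #2, against 3070 in wild type. The authors' deposited table gave it -4.31 and -4.81 without a p-value, so it was not tested. Why this isodecoder has no p-value is not given. Whether its wild-type level, 44.3% of that of the family, rests on few libraries could not be checked. With it left out, a choice made after its values were seen, the family had 800 and 710 normalised counts in KO #1 and KO #2, against 3864 in wild type, which are log2 differences of -2.27 and -2.44.

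Other Ser-GCT isodecoders carried the fall as well. tRNA-Ser-GCT-5-1 (chromosome 6, 28213037 to 28213118) had 91.8 and 76.9 normalised counts in KO #1 and KO #2, against 933 in wild type, and changes of -3.35 ± 0.62 (adjusted p = 5.89e-07) and -3.60 ± 0.61 (adjusted p = 4.23e-08) in the authors' deposited table. tRNA-Ser-GCT-1-1 (chromosome 6, 27097306 to 27097387) had 92.5 and 69.6 normalised counts in KO #1 and KO #2, against 855 in wild type, and changes of -3.21 ± 0.86 (adjusted p = 0.000708) and -3.62 ± 0.86 (adjusted p = 0.000114) in the authors' deposited table. Both fell by more than tRNA-Ser-GCT-3-1 (chromosome 11, 66348120 to 66348201, in an intron of AP001107.9), a difference that was not tested. That isodecoder, named after its values were seen, stood at -1.75 ± 0.68 and -1.87 ± 0.68 in the authors' deposited table, passing in both clones. Against the median nuclear isodecoder (adjusted p = 0.423 and 0.0977) and against the spike-ins (adjusted p = 0.0591 and 0.0766) it passed in neither clone. It made up 63.6% of the Ser-GCT level in KO #1 and 67.9% in KO #2, against 29.5% in wild type.

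Ser-CGA was split among its isodecoders. tRNA-Ser-CGA-2-1 (chromosome 6, 27209849 to 27209930) had 3.56 and 4.88 normalised counts in DUS2L KO #1 and KO #2, against 205 in wild type. Its change of -5.85 ± 0.86 (adjusted p = 2.04e-10) in KO #1 and -5.39 ± 0.73 (adjusted p = 4.42e-12) in KO #2 in the authors' deposited table was the deepest among members that both clones called. tRNA-Ser-CGA-1-1 (chromosome 17, 8138881 to 8138962), the isodecoder of highest wild-type level in the family, also fell, with 65.0 and 49.3 normalised counts in KO #1 and KO #2, against 651 in wild type. The authors' deposited table gave it -3.32 ± 0.94 (adjusted p = 0.00125) and -3.72 ± 0.93 (adjusted p = 0.00026).

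The other Ser-CGA isodecoders, named after their values were seen, did not pass in the DUS2L knockouts. tRNA-Ser-CGA-3-1 had 264 and 343 normalised counts in KO #1 and KO #2, against 174 in wild type, and the authors' deposited table gave it 0.60 ± 0.66 and 0.98 ± 0.65. tRNA-Ser-CGA-4-1 had 137 and 169, against 149 in wild type. Against the median nuclear isodecoder tRNA-Ser-CGA-3-1 passed as higher in both clones (1.62 and 1.53, adjusted p = 0.0378 and 0.0437). On the same scale tRNA-Ser-CGA-4-1 passed as higher in KO #1 (0.91, adjusted p = 0.0379) and not in KO #2 (0.73, adjusted p = 0.0847). Together tRNA-Ser-CGA-3-1 and tRNA-Ser-CGA-4-1 had 402 and 511 normalised counts in KO #1 and KO #2, against 323 in wild type. The isodecoders that fell held most of the Ser-CGA level in wild type and little of it in the knockouts, with tRNA-Ser-CGA-1-1 at 13.8% of it in KO #1 and 8.72% in KO #2, against 55.2% in wild type.

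The higher Ser-TGA level rested on a pair of its 4 isodecoders. tRNA-Ser-TGA-1-1 (chromosome 10, 67764503 to 67764584) had 1169 and 1362 normalised counts in DUS2L KO #1 and KO #2, against 404 in wild type, and rose by 1.53 ± 0.35 (adjusted p = 6.63e-05) and 1.75 ± 0.35 (adjusted p = 3.42e-06) in the authors' deposited table. tRNA-Ser-TGA-4-1 (chromosome 6, 27505828 to 27505909, in an intron of AL021918.3), named after its values were seen, had 351 and 856 normalised counts in KO #1 and KO #2, against 182 in wild type. It passed in KO #2 only (2.23 ± 0.75, adjusted p = 0.00778), and stood at 0.94 ± 0.75 in KO #1 of the authors' deposited table. The difference between its clones did not pass (adjusted p = 0.982), and against the median nuclear isodecoder it passed as higher in both (1.97 and 2.78, adjusted p = 0.026 and 0.000743). Without these isodecoders, a choice made because they were the higher ones, Ser-TGA had 28.2 and 13.1 normalised counts in KO #1 and KO #2, against 59.3 in wild type. The low-level rest of the family thus had no higher level, which that choice favours. Of the rest, tRNA-Ser-TGA-2-1, named after its values were seen, passed as lower in KO #2 alone (-2.77 ± 1.02, adjusted p = 0.0151).

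In the other families the major isodecoder followed its family. tRNA-SeC-TCA-1-1 made up at least 98.1% of the selenocysteine level in every group, and it had 781 and 576 normalised counts in DUS2L KO #1 and KO #2, against 3473 in wild type. The minor tRNA-SeC-TCA-2-1 had 4.21 and 6.76 normalised counts in KO #1 and KO #2, against 1.41 in wild type, and did not pass. tRNA-Ser-AGA-4-1 (chromosome 6, 27553413 to 27553494), the leading Ser-AGA isodecoder, had 214 and 131 normalised counts in KO #1 and KO #2, against 375 in wild type. It passed in KO #2 (-1.52 ± 0.42, adjusted p = 0.000995) and not in KO #1 (-0.81 ± 0.42 in the authors' deposited table), and against the median nuclear isodecoder its value in KO #1 was 0.22. tRNA-Ser-AGA-2-5, named after its values were seen, passed in both clones at -1.89 ± 0.74 and -2.72 ± 0.73 in the authors' deposited table. Its call in KO #1 was lost against the median nuclear isodecoder (-0.87, adjusted p = 0.38) and against the spike-ins (-1.63, adjusted p = 0.0584).

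**Figure D2:**
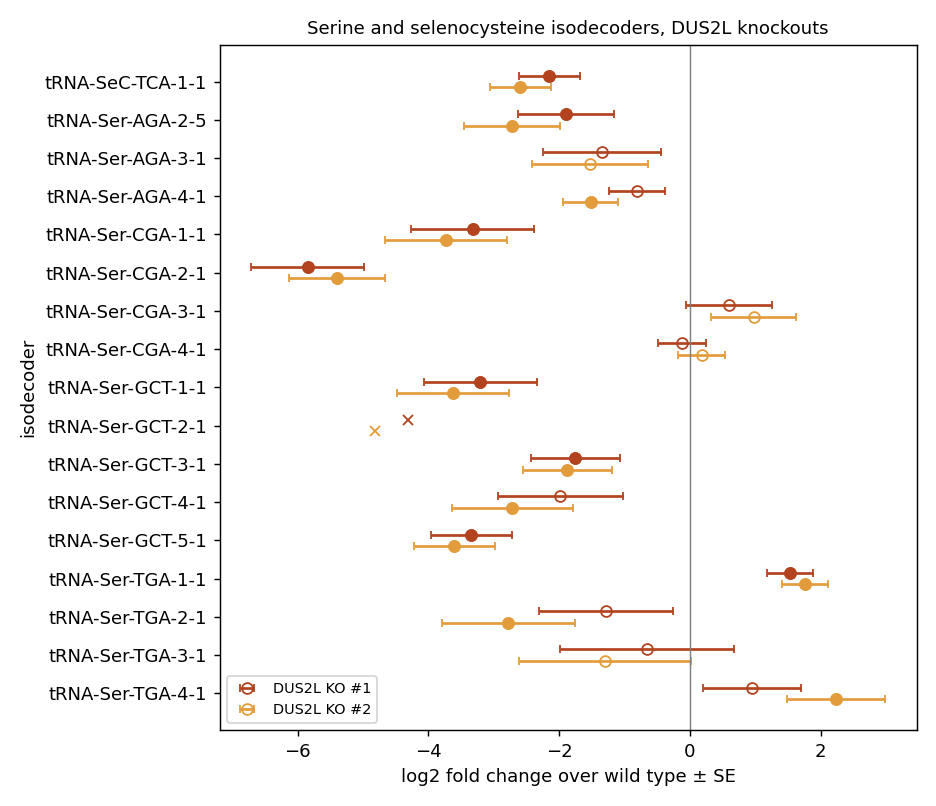
Log2 fold change over wild type (x axis) of the 17 serine and selenocysteine isodecoders whose mean reached 10 (y axis) in DUS2L clones #1 and #2. Bars are the recovered SE, filled points passed at an adjusted p under 0.05, and crosses mark tRNA-Ser-GCT-2-1, which had no p-value. Most points lie left of 0, with tRNA-Ser-TGA-1-1 and tRNA-Ser-TGA-4-1 to the right in both clones and the Ser-CGA isodecoders on both sides.

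**Figure D3:**
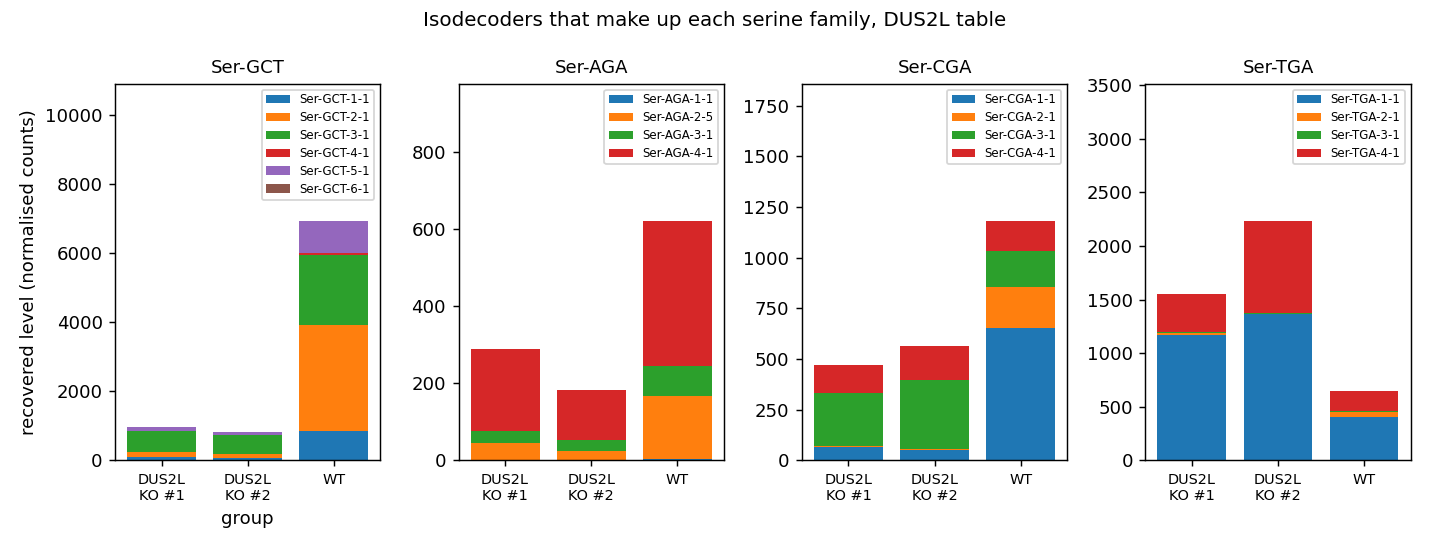
Recovered level in normalised counts (y axis, from 0) of each isodecoder, stacked within the 4 serine families, in DUS2L KO #1, DUS2L KO #2 and wild type (x axis). The Ser-GCT stack reaches 953 and 820 in the knockouts, against 6935 in wild type, and the Ser-CGA stack loses most of tRNA-Ser-CGA-1-1 and tRNA-Ser-CGA-2-1.

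In the DUS1L knockouts the selenocysteine family rose in clone #1, and the serine isodecoder tRNA-Ser-TGA-1-1 rose in both clones. SeC-TCA had 5877 normalised counts in DUS1L KO #1 and 3508 in DUS1L KO #2, against 1518 in wild type. It passed in KO #1 (1.95 ± 0.46, adjusted p = 0.000798) and not in KO #2 (1.21 ± 0.46, adjusted p = 0.188) of the authors' deposited table. This was the 1 member family called in KO #1, where 5.71% of the 70 families tested were called higher, and 0 were called in KO #2, where 0% of families passed. At an unadjusted p under 0.05 by the authors' DESeq2 test, 3 member families were past in KO #1 and 2 in KO #2, where 9 and 8 of the 45 nuclear families tested were.

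The serine families of the DUS1L table did not pass. Ser-TGA had 667 and 675 normalised counts in KO #1 and KO #2, against 286 in wild type, with changes of 1.22 ± 0.54 and 1.24 ± 0.54 in the authors' deposited table (adjusted p = 0.19 and 0.215). Ser-AGA had 608 and 371 normalised counts in KO #1 and KO #2, against 272 in wild type, with changes of 1.16 ± 0.46 (adjusted p = 0.16) and 0.45 ± 0.46 (adjusted p = 0.724) in the authors' deposited table. The knockout levels of both families were above that of wild type in each clone. Ser-CGA had 352 and 282 normalised counts in KO #1 and KO #2, against 528 in wild type, and changes of -0.59 ± 0.70 and -0.90 ± 0.70 in the authors' deposited table. Ser-GCT had 2651 and 3203, against 3110 in wild type, and changes of -0.23 ± 0.74 and 0.04 ± 0.74 in the authors' deposited table. Ser-GCT held 62.0% and 70.7% of the serine level in KO #1 and KO #2, against 74.1% in wild type.

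Of the DUS1L isodecoders 3 members were higher and 1 lower in KO #1, where 15.6% of the 275 entries tested were higher and 5.09% lower. In KO #2 1 was higher (2.55% of all entries) and 0 were lower (5.82%). The 1 member called in both clones was tRNA-Ser-TGA-1-1, where 1.45% of all entries were higher in both. It had 549 and 477 normalised counts in DUS1L KO #1 and KO #2, against 178 in wild type, and adjusted p-values of 0.00155 and 0.017. The authors' deposited tables gave it 1.63 and 1.43 in the DUS1L clones, beside 1.53 and 1.75 in the DUS2L clones, which were set against the same wild-type libraries.

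The other calls of DUS1L KO #1 were in 3 isodecoders. tRNA-SeC-TCA-1-1 had 5876 and 3506 normalised counts in KO #1 and KO #2, against 1517 in wild type, and passed in KO #1 (adjusted p = 0.000292, against 0.0696 in KO #2). Against the median nuclear isodecoder it passed in both clones (1.75 and 1.40, adjusted p = 0.00159 and 0.0239). tRNA-Ser-AGA-4-1 rose in KO #1 by 1.31 ± 0.43 (adjusted p = 0.0143) in the authors' deposited table, and against the median nuclear isodecoder that call was lost (adjusted p = 0.0502). tRNA-Ser-AGA-3-1, named after its values were seen, had 0.255 and 4.11 normalised counts in KO #1 and KO #2, against 34.2 in wild type, and was the member that fell in KO #1 (-7.07 ± 1.69, adjusted p = 0.000418, in the authors' deposited table). Its mean over the libraries was 12.9, near the lowest at which isodecoders are named here.

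The leading isodecoders of the other families did not pass in DUS1L. tRNA-Ser-GCT-2-1 had 633 and 1039 normalised counts in KO #1 and KO #2, against 1381 in wild type, and the authors' deposited table gave it -1.13 ± 0.97 and -0.41 ± 0.97. tRNA-Ser-CGA-1-1 had 75.9 and 131 in KO #1 and KO #2, against 294 in wild type, and changes of -1.95 ± 0.90 (adjusted p = 0.111) and -1.16 ± 0.89 in the authors' deposited table. Neither passed in either clone.

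In the DUS3L knockouts no member family passed in either clone, where 8.11% of the 74 families tested passed in KO #1 and 5.41% in KO #2. At an unadjusted p under 0.05 by the authors' DESeq2 test, 0 member families were past in KO #1 and 0 in KO #2, where 13 and 7 of the 49 nuclear families tested were. SeC-TCA had 568 and 812 normalised counts in DUS3L KO #1 and KO #2, against 633 in wild type, with changes of -0.16 ± 0.34 and 0.36 ± 0.34 in the authors' deposited table. Ser-GCT had 1248 and 2157, against 1641 in wild type, with changes of -0.39 ± 0.32 and 0.39 ± 0.32 in the authors' deposited table. The clones of these families lay on either side of wild type.

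The UCN families of the DUS3L table were at or above their wild-type level in both clones, without passing. Ser-TGA had 1352 and 1410 normalised counts in KO #1 and KO #2, against 1178 in wild type, with changes of 0.20 ± 0.30 and 0.26 ± 0.31 in the authors' deposited table. Ser-CGA had 462 and 676 normalised counts in KO #1 and KO #2, against 458 in wild type, with changes of 0.01 ± 0.32 and 0.56 ± 0.32 in the authors' deposited table. Ser-AGA had 84.8 and 111 normalised counts in KO #1 and KO #2, against 67.9 in wild type, with changes of 0.32 ± 0.39 and 0.71 ± 0.39 in the authors' deposited table. Ser-GCT held 39.7% and 49.5% of the serine level in KO #1 and KO #2, against 49.1% in wild type. The SEs of these families, 0.30 to 0.39, were smaller than the 0.49 to 0.72 of the same families in the DUS2L table.

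Among the DUS3L isodecoders 0 members passed in KO #1, where 7.8% of the 282 entries tested passed, and 1 was past an unadjusted p under 0.05 by the authors' DESeq2 test, where 57 of the 257 nuclear isodecoders tested were. In KO #2 1 was higher, where 10.6% were higher. That member, tRNA-Ser-GCT-4-1 (named after its values were seen), had 15.8 and 221 normalised counts in DUS3L KO #1 and KO #2, against 1.51 in wild type. Its changes were 3.38 ± 1.73 (adjusted p = 0.238) and 7.19 ± 1.72 (adjusted p = 0.000443) in the authors' deposited table. The leading isodecoders did not pass. tRNA-Ser-TGA-4-1 had 684 and 788 normalised counts in KO #1 and KO #2, against 688 in wild type. tRNA-Ser-GCT-2-1 had 436 and 630, against 565 in wild type, and tRNA-Ser-CGA-4-1 had 289 and 394, against 280 in wild type.

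The clones of each knockout were also set against each other, through the difference between their log2 fold changes. No member family or isodecoder passed in any of the 3 knockouts, where 0%, 0.364% and 2.52% of all isodecoders passed for DUS1L, DUS2L and DUS3L, and 0%, 0% and 1.35% of all families. The smallest adjusted p among the member isodecoders was 0.353 for DUS1L, 0.982 for DUS2L and 0.111 for DUS3L. At an unadjusted p under 0.05, the numbers of the 20 member isodecoders past were 1, 0 and 2 for the same knockouts. Of the nuclear isodecoders with fold changes, 36 of 260, 8 of 260 and 30 of 257 were past. No member family was past, where 1, 0 and 4 of the 49 nuclear families were. The lowest p was that of tRNA-Ser-CGA-1-1 in DUS3L, with 68.6 normalised counts in KO #1 and 192 in KO #2, against 99.2 in wild type. The test counts the spread of the shared wild-type libraries in both clones, which makes it conservative.

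Leucine tRNAs, the other nuclear tRNAs with a long variable arm, are the nearest comparison. In DUS2L the median log2 fold change of the member isodecoders was -1.82 in KO #1 and -2.23 in KO #2, that of leucine isodecoders -1.46 and -1.75, and that of all nuclear isodecoders -1.02 and -0.55. Leucine had 4 higher and 9 lower of 17 tested in KO #1, and 4 higher and 10 lower in KO #2. The members and leucine thus both had medians below that of the nuclear tRNAs in both clones. In DUS1L the medians were 0.51 and -0.15 for the members, 0.95 and 0.02 for leucine and 0.20 and -0.19 for all nuclear isodecoders in KO #1 and KO #2. In DUS3L they were 0.02 and 0.54 for the members, -0.25 and 0.30 for leucine and -0.04 and 0.22 for all nuclear isodecoders.

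**Figure D4:**
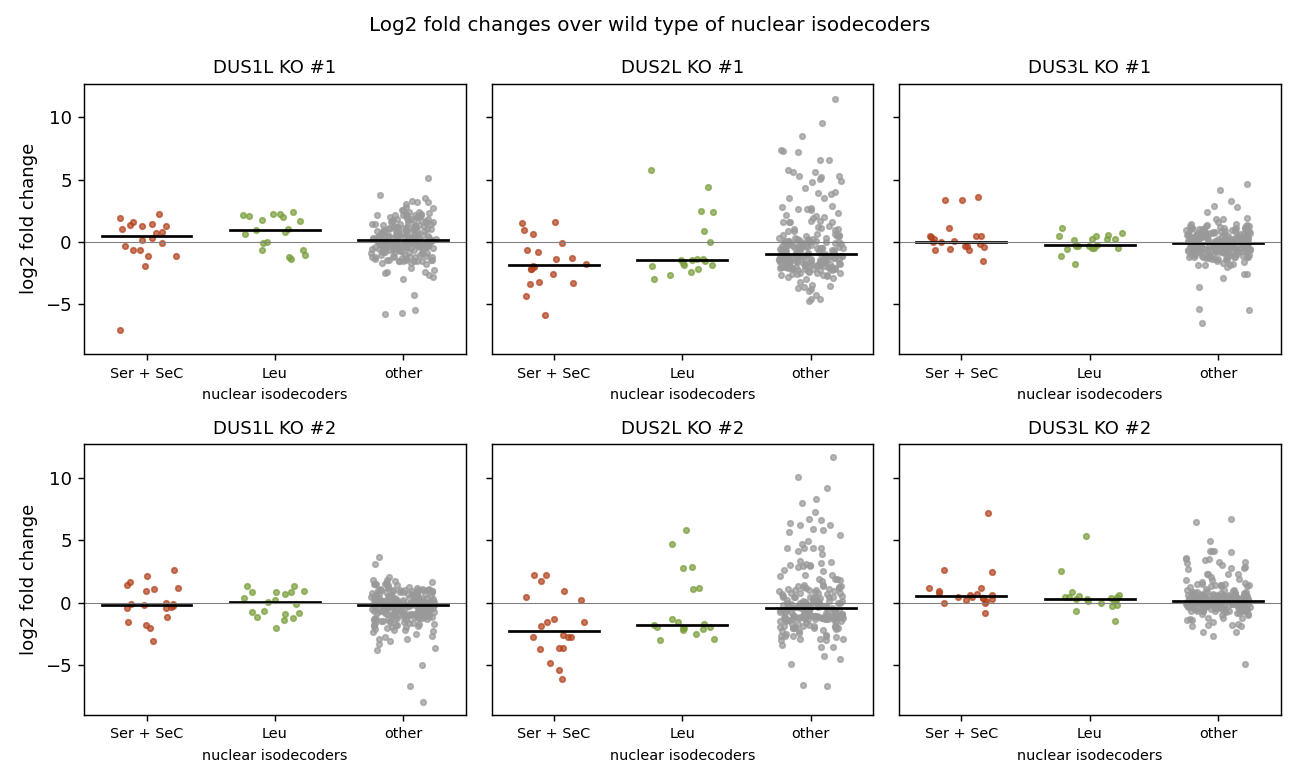
Log2 fold change over wild type (y axis) of nuclear isodecoders in each of the 6 knockout clones, split on the x axis into serine and selenocysteine, leucine and other nuclear entries. Points are isodecoders and black lines are medians. In the DUS2L panels the member medians are -1.82 and -2.23, and points of every kind lie on both sides of 0.

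Over the 6 comparisons, each centred on its median nuclear family, the families nearest to SeC-TCA were Leu-CAG and Leu-CAA. Their root mean square distances were 0.35 and 0.36 on the log2 scale, followed by Ser-AGA at 0.74, against a median distance of 1.69 over 48 families. The authors' deposited tables gave Leu-CAG 1.77 and 0.68 in the DUS1L clones, -2.31 and -2.02 in the DUS2L clones and -0.16 and 0.67 in the DUS3L clones. Nearest to Ser-GCT were Pro-AGG at 0.60, Ala-TGC at 0.82 and Leu-AAG at 0.93, against a median distance of 1.37. The authors' deposited tables gave Pro-AGG 0.32 and 0.21 in the DUS1L clones, -2.03 and -2.08 in the DUS2L clones and -0.07 and 0.21 in the DUS3L clones. No serine family was among the 3 nearest to Ser-GCT. The comparisons share control libraries, and the likeness is a description of 6 columns.

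To set levels of the tables side by side, each family was expressed on the log2 scale over the median of the 45 nuclear families measured in all tables, since the glycine family Gly-GCC alone held 73.9%, 67.8% and 55.6% of the nuclear counts in DUS3L KO #1, KO #2 and wild type, against 9.16% for wild type in the DUS2L table. On this scale the order of the levels in that wild type, high to low, was Ser-GCT at -1.31, SeC-TCA at -2.31, Ser-CGA at -3.86, Ser-TGA at -4.73 and Ser-AGA at -4.79. In the wild type of the DUS3L table it was Ser-GCT at -0.22, Ser-TGA at -0.70, SeC-TCA at -1.59, Ser-CGA at -2.06 and Ser-AGA at -4.81. Ser-TGA thus took another place in the order of each wild-type set, with a difference of -4.04 between the set of the DUS2L table and that of the DUS3L table, while Ser-AGA differed by 0.02. The tables give no spread of a level, so neighbouring levels, such as those of Ser-TGA and Ser-AGA, were not tested against each other.

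Set against the other wild-type libraries, Ser-TGA of the DUS2L clones was lower and not higher, while SeC-TCA and Ser-GCT were lower than both wild-type sets. Ser-TGA stood at -2.78 in DUS2L KO #1 and -2.57 in DUS2L KO #2, above the -4.73 of its own wild type and below the -0.70 of the other set (differences of -2.08 and -1.88 against that set). Ser-GCT in DUS2L KO #1 and KO #2 was below the wild type of the DUS3L table by -3.26 and -3.80, and SeC-TCA by -2.17 and -2.92. For the DUS1L clones SeC-TCA was 1.21 and 0.33 above that wild type in KO #1 and KO #2, and Ser-TGA stood at -2.83 and -2.95 against it. The tables were normalised separately, so these differences are levels set side by side, with no test.

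**Figure D5:**
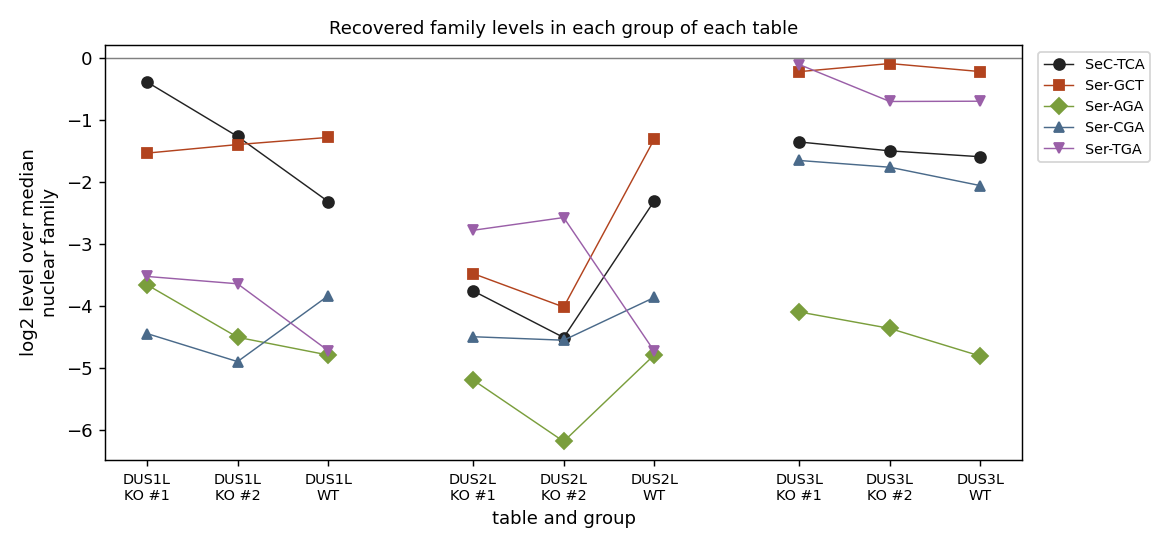
Recovered level of each serine and selenocysteine family on the log2 scale over the median nuclear family (y axis) in clones #1 and #2 and wild type of the DUS1L, DUS2L and DUS3L tables (x axis), with lines joining the groups of a table. The wild types of the DUS1L and DUS2L tables have nearly equal levels, with Ser-TGA at -4.73 in the DUS2L table, and the wild type of the DUS3L table has Ser-TGA at -0.70.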

How the data were processed

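Small RNA libraries of gel-isolated tRNA were made from HEK293T cells, per the labels' protocols. For the authors' processing the build hg38 and the tools DESeq2, featureCounts, STAR and fastp are listed, without versions or settings, per the submitters' processing notes. How reads that match several tRNA genes were assigned is not given in the sources used here, so values of near-identical isodecoders, whose reads can be shared, are uncertain. The authors' deposited tables hold, per the file headers, a signal (the mean normalised count over the libraries), log2 fold changes of clones #1 and #2 over wild type, and unadjusted p-values.

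From these, the p-values of each table column were adjusted together (Benjamini-Hochberg, threshold 0.05). An SE was obtained by dividing the absolute log2 fold change by the normal quantile that its p-value stands for. Group levels were solved from the mean and the fold changes of both clones, taking each of 3 groups to hold 3 libraries. Wild-type isodecoder levels of the members summed to their family's within 0.188%, and knockout levels were not compared in this way. For the test between clones, the difference of log2 fold changes was divided by its SE, with the SEs of both clones added in squares. Code for the calling and for the recovery of SEs and wild-type levels was run on invented input. For the recovery such a run checks only the arithmetic. Whether the authors' p-values follow the normal quantile used for the SEs was not tested. The test between clones was not run on such input.

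The members and lists were chosen with earlier results of these data known. All 5 families are described. Named isodecoders have a mean of at least 10 and are, per knockout, up to 5 higher and 5 lower that passed in both clones in 1 direction, by the smaller change, any that passed in opposite directions or between clones (0 did), and the highest wild-type level of each family. Others are marked as named after their values were seen. Alternatives were a threshold of 0.01, a size limit of 1 on the absolute log2 scale, a lowest mean of 100, centring on the median nuclear entry, the mean of the E. coli spike-ins as reference, and Bonferroni adjustment. Gene positions are those of RefSeq on GRCh38, and overlapping genes those of GENCODE release 29. The work was done in Python 3.11.15 with pandas 2.3.3, numpy 2.4.6, matplotlib 3.10.9 and scipy 1.17.1.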

Additional observations from a re-analysis of the deposited data

How the results depend on the processing

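The 6 alternatives left 100 of 108 counts of member calls within 1.5 times their value, and 172 of 178 family values on their side of the threshold without a change of sign. These include Ser-AGA in DUS2L KO #1, itself the median nuclear family there, which centring puts at 0 and so leaves without a direction. Many of these outcomes were fixed beforehand, so the tallies say little about stability. A count of 0 as reported could not fall. The stricter threshold, the size limit and Bonferroni adjustment can only remove calls, and they leave every fold change as it was. The exceptions among the counts were isodecoders. For DUS1L KO #2, 1 was called as reported, 0 at an adjusted p of 0.01 and by Bonferroni adjustment, 2 with a mean of at least 100 and 3 after centring. Among all entries of that clone, 7 were higher and 16 lower as reported, and 19 and 13 after centring. They were 1 and 11 at 0.01, 1 and 10 by Bonferroni adjustment, and 10 and 15 with a mean of at least 100. For DUS2L KO #2, 13 of the 19 tested were called as reported, and 8 of the 10 tested with a mean of at least 100. Bonferroni adjustment left 6 there, and 4 of 8 in DUS2L KO #1. Among all entries of DUS2L KO #2, 59 were higher and 85 lower as reported, and 44 and 72 with that mean. By Bonferroni adjustment they were 43 and 32 in KO #2, and 37 and 40 in KO #1. For DUS3L KO #2, 1 was called as reported and 0 with a mean of at least 100, a limit that leaves tRNA-Ser-GCT-4-1 out. Among all entries of DUS3L KO #2, 30 were higher as reported and 17 with that mean. Of families, SeC-TCA in DUS2L KO #1 lost its call after centring, and Ser-TGA there lost it at an adjusted p of 0.01 and by Bonferroni adjustment. The isodecoder tRNA-SeC-TCA-1-1 kept its call in DUS2L KO #1 after centring. Uncalled DUS3L values changed sign, to 0.034 for SeC-TCA in KO #1 and -0.019 for Ser-TGA in KO #2 after centring and to -0.15 for Ser-CGA in KO #1 against the spike-ins. The cause was not tested. Centring moved the calls among all DUS2L isodecoders to 73 higher and 29 lower in KO #1 (46 and 103 as reported) and to 78 and 47 in KO #2 (59 and 85). Calls among the members became 4 higher and 5 lower in KO #1 and 3 and 8 in KO #2.

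No paired analysis was possible because the tables hold no values per library. For the same reason leaving out each replicate was not run, and single libraries could not be looked at. Recovered SEs take the authors' p-values as given, and members with a mean under 10 are limited by depth.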
